A study of Homo sapiens with 6 samples.

Results

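Heat shock proteins and co-chaperones are the cell's protein folding machinery, and their RNA was described here in DLD-1 cells given TGF-β with or without a plant flavonoid extract. The members were the genes of the deposited table with a protein-coding transcript and a name of the HSPA, HSPB, HSPD1, HSPE1, HSPH1, HSP90, DNAJA, DNAJB, DNAJC, CCT, TCP1, BAG1 to BAG6, HSF1 or HSF2 kind. The rule found 84 members among 31016 genes, and it left out 2 further genes of matching name, HSPA7 and DNAJB3, which have no protein-coding transcript there. By family these were 15 HSP70 genes, 1 HSP110 gene (HSPH1), 3 HSP90 genes, 2 chaperonin genes of the mitochondrion (HSPD1 and HSPE1), 9 genes of the cytosolic chaperonin CCT, 5 small heat shock proteins, 4 DNAJA, 11 DNAJB and 26 DNAJC genes, 6 BAG genes and 2 heat shock factors. A pair of rows carry the name HSPA14, and the minor one is given with its identifier, ENSG00000284024.

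DLD-1 is an established human colorectal adenocarcinoma line of epithelial type. Its cells received TGF-β in 3 libraries (TGFb 1 to 3), and TGF-β together with TFA, the total flavones of Abelmoschus manihot, in another 3 (TGFb_TFA 1 to 3). The labels give 24, 25 and 26 hours of treatment for replicates 1, 2 and 3 of both groups, times that run with the replicate number and may not be the true ones. Doses were not given in the sources used here. Both groups received TGF-β, so every comparison is between TGF-β-treated cells. The labels do not say whether the libraries of a group came from separate cultures, and p-values measure only the spread between these libraries.

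Total estimated counts ran from 60361756 to 68745953 per library, and 80 to 83 of the 84 members were above 0 in each. Of the epithelial markers of the labelled type, 9 of 10 had a mean of at least 1 FPKM (read fragments scaled to transcript length and library total), with summed levels of 1535 to 1821 FPKM with TGF-β and at 1424 to 1577 FPKM with TFA. VIL1 was the exception, at 0.302 FPKM or less in every library. Fibroblast markers (9 listed, none at 1 FPKM) summed to 0.0630 to 0.367 FPKM with TGF-β and at 0.448 to 2.37 FPKM with TFA, and their part in the results was not tested. In bulk RNA, fewer cells of a type and less RNA per cell cannot be told apart. Of the endothelial markers 1 of 8 reached 1 FPKM (sums 1.55 to 1.99 against 2.04 to 2.38 FPKM), and of the blood markers 0 of 8 (0.469 to 0.619 against 0.346 to 0.903 FPKM), with PTPRC and CD3E at 0 or not in the table. TGFb_TFA 3 stood apart from the other libraries along transcript length. The shortest 10% of tested genes had a median deviation of 0.36 from their 6-library mean there (on log2 CPM, the counts scaled to library size) and the longest 10% one of -0.33, while both medians lay between -0.16 and 0.20 in the other 5. Log2 fold changes are therefore also given without this library where they differ by more than 1.5 times or in sign, for the members described with a fold change. Over the members, 20 changed sign without it.

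Chaperones bind proteins that are unfolded or partly folded and help them reach their native form. HSP70 proteins do this in cycles of ATP hydrolysis, which J-domain proteins (DNAJ) start and nucleotide exchange factors (BAG proteins and HSP110) end. HSP90 takes over signalling clients such as kinases and steroid receptors, chaperonins fold proteins inside a ring-shaped chamber, and small heat shock proteins hold unfolded proteins without using ATP. Under heat or other proteotoxic stress the transcription factor HSF1 binds heat shock elements, repeats of the unit nGAAn, and raises many of these genes. Unfolded protein in the endoplasmic reticulum (ER) acts on a different set, led by HSPA5 and HSP90B1, through ER stress elements bound by ATF6. Cancer cells are known for high levels of HSP90 and HSP70.

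The promoters of 4 members with letters that match elements of these stress responses are printed here, and use of the elements was not tested. Each is the stretch from 250 bases before to 50 bases after the RefSeq start (assembly GRCh38.p14), written 5′ to 3′ on the gene's own strand, with the matched element in capitals. The heat shock element searched was GAANNTTCNNGAA, that is 3 units, on both strands (TTCNNGAANNTTC is its reverse complement), and a longer run of units can match on both. The ER stress element searched was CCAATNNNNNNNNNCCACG, on both strands (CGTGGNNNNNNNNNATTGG). HSPA8, the constitutive cytosolic HSP70, and DNAJA1, its J-domain partner, hold the first element, and HSPA5 and HSP90B1 the second. The match of DNAJA1 lies after the RefSeq start.
HSPA8 (chr11:123062087-123062386, minus strand): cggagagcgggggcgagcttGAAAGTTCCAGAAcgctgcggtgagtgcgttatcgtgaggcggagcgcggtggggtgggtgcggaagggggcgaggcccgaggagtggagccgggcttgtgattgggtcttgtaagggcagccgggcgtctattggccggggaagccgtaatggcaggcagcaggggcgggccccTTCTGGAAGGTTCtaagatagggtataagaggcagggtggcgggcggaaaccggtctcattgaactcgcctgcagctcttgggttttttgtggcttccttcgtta
DNAJA1 (chr9:33025023-33025322, plus strand): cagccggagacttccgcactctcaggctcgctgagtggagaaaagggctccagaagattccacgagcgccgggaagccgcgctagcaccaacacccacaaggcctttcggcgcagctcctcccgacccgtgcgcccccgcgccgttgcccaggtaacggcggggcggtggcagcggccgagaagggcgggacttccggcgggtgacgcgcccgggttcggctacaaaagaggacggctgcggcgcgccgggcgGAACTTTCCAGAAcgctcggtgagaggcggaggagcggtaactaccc
HSPA5 (chr9:125241294-125241593, minus strand): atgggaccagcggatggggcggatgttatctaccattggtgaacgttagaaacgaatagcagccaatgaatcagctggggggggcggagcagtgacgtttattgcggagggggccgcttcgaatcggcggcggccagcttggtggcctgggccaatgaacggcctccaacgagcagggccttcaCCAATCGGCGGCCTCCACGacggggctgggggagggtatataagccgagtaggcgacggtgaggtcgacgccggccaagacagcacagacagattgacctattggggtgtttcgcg
HSP90B1 (chr12:103930160-103930459, plus strand): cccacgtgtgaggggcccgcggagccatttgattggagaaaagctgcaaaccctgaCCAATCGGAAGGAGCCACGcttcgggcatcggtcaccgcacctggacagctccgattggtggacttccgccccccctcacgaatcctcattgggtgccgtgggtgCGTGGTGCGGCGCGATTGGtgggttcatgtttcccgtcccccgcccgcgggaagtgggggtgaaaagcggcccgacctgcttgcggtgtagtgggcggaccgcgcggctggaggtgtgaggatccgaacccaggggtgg

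The heat shock element stood in 133 of 27305 promoter windows (0.487%) and in 4 of the 74 member symbols with a window, DNAJA1, DNAJB6, HSPA6 and HSPA8. The list of 14 heat-inducible members was HSPA1A, HSPA1B, HSPA4L, HSPA6, HSPA8, HSPH1, HSP90AA1, HSPD1, HSPE1, HSPB1, DNAJA1, DNAJB1, DNAJB4 and BAG3. It includes HSPA8, called constitutive above, and 3 of the 14 held the element (DNAJA1, HSPA6 and HSPA8). The ER stress element stood in 22 of 27305 windows (0.0806%) and in 2 of 74 member windows, those of HSPA5 and HSP90B1. A match describes these letters only, and a window without one says nothing about HSF1 or ATF6. HSPD1 and HSPE1 are read in opposite directions from neighbouring starts, and their windows (chr2:197500225-197500524, minus strand, and chr2:197500129-197500428, plus strand) overlap.

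No chaperone gene changed past the test with TFA. Of the 84 members, 79 had enough counts to test, and 0 were called higher or lower at an adjusted p under 0.05 in edgeR's quasi-likelihood test, with p-values adjusted by Benjamini-Hochberg over 18265 genes. Over all tested genes 0.0109% were called higher (2 genes, neither a member) and 0% lower. At an unadjusted p under 0.05 there were also 0 members, against 1.83% of all tested genes, and the lowest unadjusted p was 0.0717 (CCT6B). DESeq2 likewise called 0 members and had 0 at an unadjusted p under 0.05, with an adjusted p for 83 of them. The fitted log2 fold change (TGF-β with TFA over TGF-β) was above 0 for 47 members and below 0 for 32. Its median was 0.026, beside 0.011 over all tested genes.

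The intervals were narrow for most members. The 95% interval lay within 2-fold in either direction for 73 of 79 members, and within 1.5-fold for 51. Over all 18265 tested genes, which were not matched to the members for level, these counts were 11672 and 6398. Among the 68 members with a mean of at least 1 FPKM, 67 intervals lay within 2-fold, and the exception was DNAJC13. Fitted values of these 68 ran from -0.26 (BAG6) to 0.36 (DNAJC19). The spread of FPKM over the 6 libraries had a median coefficient of variation of 11.4% in these members and of 15.3% in the 10496 genes of the table at that level. It was lowest in DNAJC25, a J-domain protein (3.14%), and highest in DNAJC13 (42.8%).

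**Figure D1:**
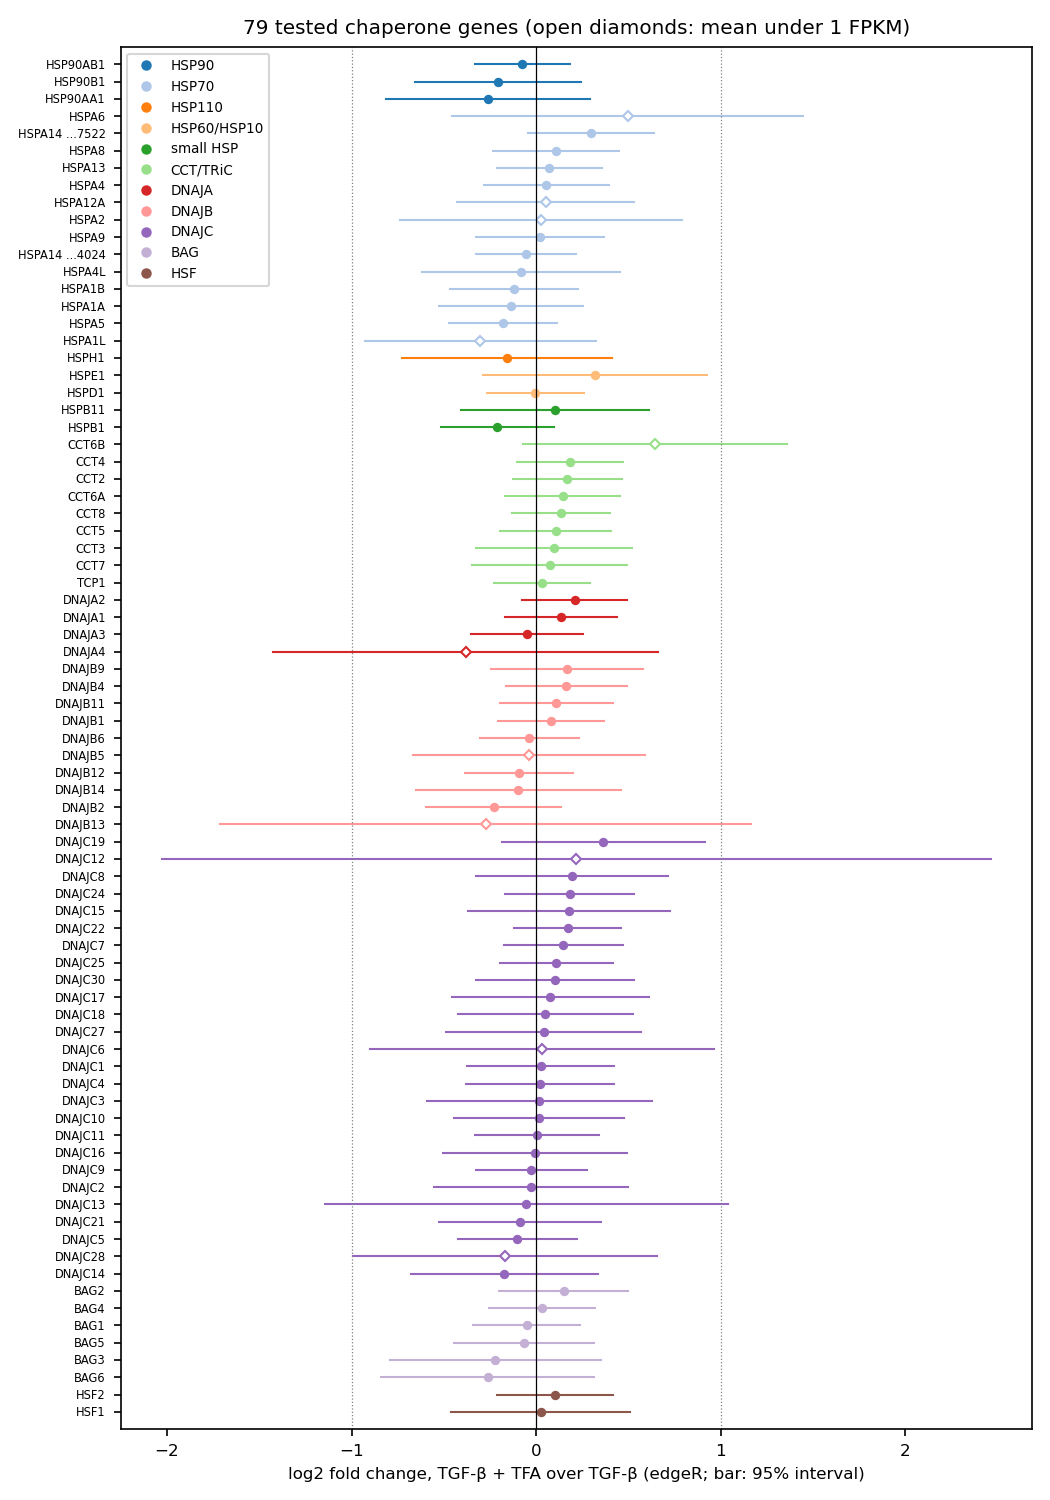
Fitted log2 fold change (x axis, TGF-β with TFA over TGF-β, edgeR) of the 79 tested members (y axis, coloured by family), with bars for the 95% interval, dotted lines at 2-fold and open diamonds for members with a mean under 1 FPKM. All 79 intervals hold 0, and 73 lie inside the dotted lines.

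In 9 of 79 members (11.4%) the FPKM values of the groups did not overlap. The 7 higher ones were CCT2, CCT4, CCT5, CCT6B, DNAJC22, DNAJC25 and HSPA14, against 4.22% of all tested genes in that direction. BAG1 and HSPB1 were the 2 lower ones, against 3.73%. On scaled counts 7 of 79 members were higher and 1 lower without overlap, against 4.58% and 3.33% of all tested genes. The same position was held on both scales by 5 members. With a library left out the groups are smaller. Of 79 members, 21, 17 and 11 then did not overlap without TGFb 1, 2 and 3, beside 16.7%, 18.6% and 13.3% of all tested genes. Without TGFb_TFA 1, 2 and 3 the counts were 14, 15 and 17 of 79 members, beside 15.5%, 14.1% and 21.4%.

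The heat shock factors regulate many of these genes. HSF1, the main stress-activated factor, stood at 2.36, 2.84 and 3.97 FPKM with TGF-β and at 3.62, 3.11 and 2.46 FPKM with TFA (log2 fold change 0.026, SE 0.21). HSF2, a related factor with roles in development, stood at 15.2, 11.7 and 13.9 against 14.8, 14.3 and 13.8 FPKM (0.10, SE 0.14). Without TGFb_TFA 3 HSF1 had 0.10 (SE 0.22) and HSF2 0.05 (SE 0.13). The groups overlapped for both genes, and the RNA of HSF1 does not measure its activity.

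Among the 14 heat-inducible members, 0 were called, 6 had fitted values above 0 and 8 below, and the median was -0.043, or 0.00050 without TGFb_TFA 3. HSPA1A and HSPA1B encode the classical stress-induced HSP70, which is low in unstressed cells. HSPA1B stood at 17.3, 19.4 and 20.6 FPKM with TGF-β and at 19.6, 19.5 and 13.1 FPKM with TFA. HSPA1A stood at 9.27, 11.2 and 12.4 against 11.6, 10.5 and 7.46 FPKM. In both genes TGFb_TFA 3 was the lowest of the 6 libraries and TGFb_TFA 1 and 2 lay within the range of the TGF-β libraries. Their longest protein-coding transcripts in GENCODE 29 (2483 and 2521 bases) have 2317 identical bases, so reads may have been divided between them, and the counts summed over both had a log2 fold change of -0.12 (SE 0.15). Without TGFb_TFA 3 HSPA1B had -0.01 (SE 0.12) and HSPA1A -0.03 (SE 0.15), in place of -0.12 and -0.13. HSPA6, a strictly inducible HSP70 with a heat shock element in its window, ranged over 0.201 to 0.237 FPKM with TGF-β and at 0.202 to 0.382 FPKM with TFA. DNAJB1, the J-domain protein induced together with HSPA1A, was among the steadiest members, at 37.6, 40.7 and 38.3 against 40.4, 40.5 and 39.5 FPKM (0.08, 95% interval -0.21 to 0.37; 0.01 without TGFb_TFA 3).

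Outside the members, 10 other HSF1 targets were listed and 9 tested, of which 0 were called, 6 were fitted above 0 and 3 below (median 0.093). Without TGFb_TFA 3 that median was -0.099. UBB, a polyubiquitin gene, was the most abundant, at 602, 693 and 560 FPKM with TGF-β and at 522, 560 and 750 FPKM with TFA. The small heat shock protein gene CRYAB was almost silent, at no more than 0.0110 FPKM in any library.

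HSP70 genes held the second most abundant member. HSPA8 (chr11:123057489-123063230) stood at 1067, 1130 and 1004 FPKM with TGF-β and at 1080, 1083 and 1197 FPKM with TFA. The groups overlapped, at a log2 fold change of 0.11 (SE 0.15; 95% interval -0.23 to 0.45), and the sign turned to -0.03 (SE 0.09) without TGFb_TFA 3, its highest library. HSPA9, the mitochondrial HSP70 mortalin, stood at 112, 82.5 and 105 against 108, 111 and 79.6 FPKM (0.02, SE 0.15; 0.10 without TGFb_TFA 3). The family's 14 tested genes had a median of 0.02, 8 above 0 and 6 below, and 9 of 19 alternative fits gave that median the other sign. HSPA12B was too low to test.

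HSPA14 encodes a ribosome-associated HSP70 that works with the J-domain protein DNAJC2. Its main row stood at 40.5, 39.8 and 35.5 FPKM with TGF-β and at 42.8, 47.6 and 48.2 FPKM with TFA, so that the 3 TFA values were the highest of the 6. The log2 fold change was 0.30 (SE 0.15; 95% interval -0.04 to 0.64), the largest in the family among members with at least 1 FPKM, and it was not called (adjusted p = 0.9997, edgeR's quasi-likelihood test, Benjamini-Hochberg adjusted). Without TGFb_TFA 3 it was 0.18 (SE 0.11). The second row of that name (ENSG00000284024) shares 460 exon bases with it and stood at 6.37, 5.88 and 6.11 against 6.39, 6.004 and 4.97 FPKM. Counts summed over both rows gave 0.22 (SE 0.13). DNAJC2 itself stood at 8.28 FPKM in TGFb_TFA 3 and between 13.3 and 17.4 FPKM in the other 5 libraries.

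HSP110 and the distant HSP70 relatives act as exchange factors for HSP70. HSPH1 (HSP110) stood at 40.9, 30.5 and 39.1 FPKM with TGF-β and at 40.1, 39.9 and 18.7 FPKM with TFA. Its low value lay in TGFb_TFA 3 alone, at 0.492 of the mean of the other 5. The log2 fold change was -0.16 (SE 0.24) with this library and 0.08 (SE 0.13) without it. HSPA4, of the same group, showed the same library low, at 82.4, 68.96 and 76.1 against 87.9, 87.0 and 58.5 FPKM (0.05, SE 0.15). Its log2 fold change without TGFb_TFA 3 was 0.16.

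BAG proteins link HSP70 to partners such as the proteasome, autophagy and BCL2. BAG3, which is heat-inducible and directs clients to autophagy, was the most variable of the 6 (coefficient of variation 28.3%), at 9.85, 11.7 and 17.9 FPKM with TGF-β and at 13.7, 12.02 and 7.87 FPKM with TFA (-0.22, SE 0.25). BAG6, which handles tail-anchored and mislocalised proteins, followed the same library order, at 6.49, 7.56 and 10.7 against 8.38, 7.82 and 4.33 FPKM (-0.26, SE 0.25). In both genes the highest library was TGFb 3 and the lowest TGFb_TFA 3, without which BAG3 had -0.08 (SE 0.24) and BAG6 -0.07 (SE 0.20). BAG1, which ties HSP70 to the proteasome, spanned a narrow range without overlap of the groups, at 4.61, 4.47 and 4.39 against 4.17, 4.30 and 4.22 FPKM. Its fitted log2 fold change was -0.05 (SE 0.12), or -0.13 (SE 0.11) without TGFb_TFA 3, and on scaled counts its groups overlapped. BAG2, an inhibitor of the ubiquitin ligase CHIP, was the most abundant of the 6, at 14.4 ± 0.562 FPKM with TGF-β and at 15.5 ± 1.08 FPKM with TFA (SD, n = 3), and its log2 fold change of 0.15 (SE 0.15) was 0.0056 without TGFb_TFA 3. The family had a median of -0.06, with 2 members above 0 and 4 below.

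J-domain proteins choose the clients and the site of HSP70's work. DNAJA1 (chr9:33025273-33039907), the most abundant of them, stood at 152, 140 and 136 FPKM with TGF-β and at 150, 154 and 155 FPKM with TFA (0.13, SE 0.13; 0.04 without TGFb_TFA 3). DNAJA2, its close relative, stood at 16.3, 13.5 and 15.6 against 17.7, 18.7 and 15.2 FPKM (0.21, SE 0.12). DNAJA3, the mitochondrial form, stood at 7.63, 9.23 and 8.90 against 8.17, 8.76 and 7.44 FPKM (-0.05, SE 0.13). On FPKM the groups overlapped in each of these 3 genes. On scaled counts those of DNAJA2 did not, with TFA higher, as in 4.58% of all tested genes. DNAJB2, a form enriched in neurons that binds ubiquitin, had the lowest fitted value of its subfamily at 1 FPKM or more, at 1.83, 2.34 and 2.28 against 2.06, 1.80 and 1.54 FPKM (-0.23, SE 0.16). Medians were 0.04 for the 4 DNAJA genes and -0.04 for the 10 tested DNAJB genes, with the other sign in 3 and 4 of 19 alternative fits.

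The DNAJC genes are the largest and most diverse group. Of 26 tested, 18 had fitted values above 0 and 8 below, with a median of 0.03. DNAJC8, which is linked to splicing, was the most abundant, at 92.7, 102 and 80.9 FPKM with TGF-β and at 88.4, 89.9 and 126 FPKM with TFA (0.19, SE 0.22). DNAJC19, a subunit of the mitochondrial import motor, stood at 13.4, 15.4 and 11.96 against 14.5, 14.7 and 21.2 FPKM. Both were highest in TGFb_TFA 3, and without that library DNAJC8 had -0.09 (SE 0.13) and DNAJC19 0.06 (SE 0.14). DNAJC9, a histone chaperone, stood at 42.7, 40.5 and 38.8 against 37.5, 40.2 and 39.2 FPKM (-0.03, SE 0.13; -0.11 without TGFb_TFA 3). DNAJC13, an endosomal protein with a long transcript, was at 1.05 FPKM in TGFb_TFA 3, 1.98 FPKM in TGFb 2 and 3.92 to 4.52 FPKM in the other 4 libraries, so low values occurred in both groups. DNAJC14, an ER membrane protein, had the lowest fitted value of this group at 1 FPKM or more (-0.17, SE 0.22), at 5.24, 3.73 and 5.73 against 4.99, 3.37 and 4.31 FPKM, and -0.27 (SE 0.23) without TGFb_TFA 3. It shares 973 of its 4192 exon bases with AC023055 (ENSG00000257390). That gene stood at 0.142, 12.2 and 0.0882 FPKM with TGF-β and at 7.405, 14.6 and 0.127 FPKM with TFA. Its 2 highest libraries, TGFb 2 and TGFb_TFA 2, were the 2 lowest of DNAJC14. Counts of this pair were not summed, and a division of reads between them was not tested.

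DNAJC25 and DNAJC22 were the DNAJC genes whose groups did not overlap. DNAJC25 stood at 4.30, 4.34 and 4.40 FPKM with TGF-β and at 4.65, 4.59 and 4.50 FPKM with TFA (0.11, SE 0.13). DNAJC22 stood at 2.95, 2.86 and 2.82 against 3.23, 3.23 and 3.05 FPKM (0.17, SE 0.12). These are narrow separations, and neither was called. Without TGFb_TFA 3 DNAJC25 had 0.04 (SE 0.13). DNAJC25 also shares 358 exon bases with the readthrough gene DNAJC25-GNG10, which was more abundant, at 12.7 to 15.5 FPKM, and their summed counts gave 0.10 (SE 0.14).

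**Figure D2:**
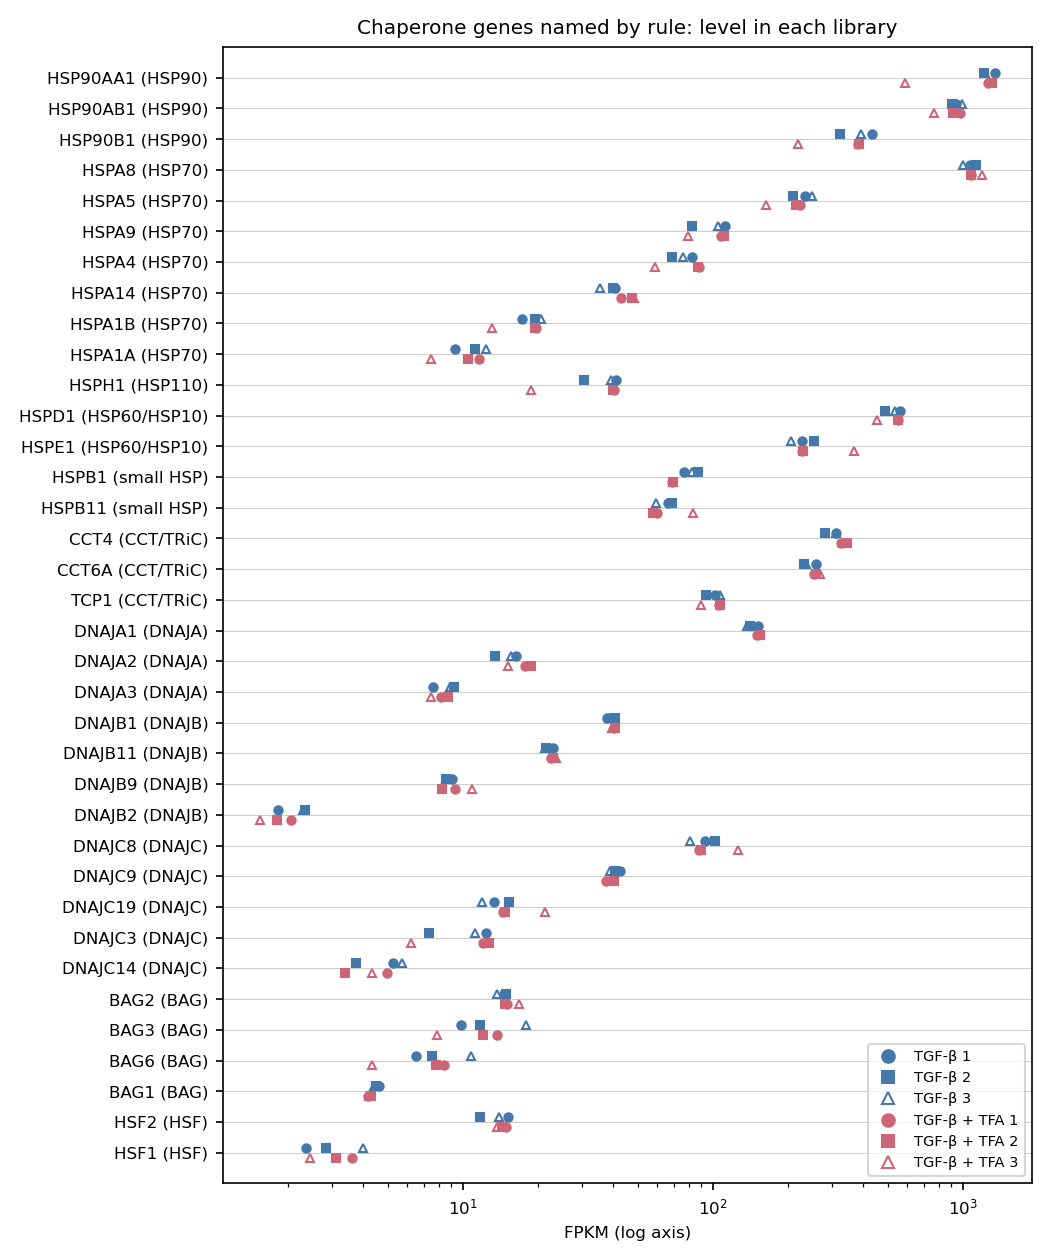
FPKM (x axis, log scale) of the members named by rule with a mean of at least 1 FPKM (y axis, with family), one point per library, blue for TGF-β and red for TGF-β with TFA, open triangles for replicate 3. Levels run from a mean of 1.98 FPKM (DNAJB2) to 1157 FPKM (mean of HSP90AA1), and the open red triangle of TGFb_TFA 3 lies away from the other points in HSP90AA1, HSP90B1, HSPH1 and HSPE1.

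Of the 3 HSP90 genes, HSP90AA1 and HSP90B1 departed most in a single library. HSP90AA1 (chr14:102080742-102139699, minus strand), the stress-responsive cytosolic form, stood at 1349, 1213 and 1223 FPKM with TGF-β and at 1258, 1313 and 587 FPKM with TFA. TGFb_TFA 3 thus held 0.462 of the mean of the other 5, while TGFb_TFA 1 and 2 lay within the range of the TGF-β libraries. With all libraries the log2 fold change came to -0.26 (SE 0.24; 95% interval -0.81 to 0.29), and to -0.02 (SE 0.08; 95% interval -0.21 to 0.17) without TGFb_TFA 3. HSP90AB1, the constitutive form, stood at 944, 907 and 996 against 976, 914 and 766 FPKM (-0.07, SE 0.11). On scaled counts it deviated from its 6-library mean by only -0.09 in TGFb_TFA 3, beside -0.06 in TGFb_TFA 2. The ratio of HSP90AA1 to HSP90AB1 was 1.23 to 1.44 in 5 libraries and 0.766 in TGFb_TFA 3. HSP90B1 (chr12:103930107-103947927), the ER form GRP94, stood at 434, 321 and 393 against 381, 386 and 219 FPKM (-0.21, SE 0.19; without TGFb_TFA 3, -0.04, SE 0.12). All 3 genes had fitted values below 0, with a median of -0.21 that was -0.04 without TGFb_TFA 3 and 0.02 without TGFb_TFA 3 and TGFb 1.

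HSP90AA1, HSPA8 and HSP90AB1 together made up 39.7% to 46.1% of the members' summed FPKM. The summed FPKM of all members was 2.07% to 2.44% of the table's total in 5 libraries and 1.83% in TGFb_TFA 3. Partners that work with HSP70 and HSP90 were listed apart from the members, 16 genes with 0 called, 12 fitted above 0 and 4 below (median 0.05, or -0.02 without TGFb_TFA 3). PTGES3, the co-chaperone p23, was the most abundant at 131, 117 and 141 FPKM with TGF-β and at 138, 137 and 111 FPKM with TFA. STIP1, which hands clients from HSP70 to HSP90, stood at 120, 133 and 116 against 118, 118 and 132 FPKM. The groups overlapped in both.

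Mitochondrial chaperonin consists of HSPD1 (HSP60, the ring) and HSPE1 (HSP10, its lid), which are transcribed away from each other from 1 region of chromosome 2. HSPD1 stood at 562, 487 and 538 FPKM with TGF-β and at 549, 551 and 452 FPKM with TFA (-0.0044, SE 0.11; 0.013 without TGFb_TFA 3). HSPE1 stood at 228, 253 and 206 against 228, 230 and 366 FPKM (0.32, SE 0.26). The ratio of HSPD1 to HSPE1 was therefore 1.92 to 2.61 in 5 libraries and 1.23 in TGFb_TFA 3. Without that library HSPE1 had a log2 fold change of -0.05 (SE 0.12). The readthrough gene HSPE1-MOB4, which shares 192 exon bases with HSPE1, was listed at 0 in 5 libraries and at 33.0 FPKM in TGFb_TFA 3, and adding its counts to HSPE1 gave 0.35 (SE 0.27). The 8 mitochondrial members had a median of 0.06 (6 above 0, 2 below), and 11 further genes of mitochondrial protein quality control had 0.09 (7 above 0, 4 below, 0 called), or -0.05 without TGFb_TFA 3.

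CCT, also called TRiC, folds actin and tubulin in a ring of 8 different subunits, encoded by TCP1, CCT2 to CCT5, CCT6A, CCT7 and CCT8, with CCT6B as a testis form. The 8 subunits that make the ring had mean levels from 101 FPKM (TCP1) to 318 FPKM (CCT4), a ratio of 3.15. All 9 genes had fitted values above 0, with a median of 0.14, and none was called. CCT4 stood at 312, 281 and 312 FPKM with TGF-β and at 327, 344 and 332 FPKM with TFA, without overlap (0.18, SE 0.12; 95% interval -0.10 to 0.47). CCT2 stood at 197, 181 and 175 against 197, 209 and 202 FPKM (0.17, SE 0.13), where TGFb 1 and TGFb_TFA 1 nearly touched. CCT5 stood at 153, 149 and 145 against 154, 154 and 160 FPKM (0.11, SE 0.13). CCT6A stood at 260, 231 and 237 against 254, 259 and 269 FPKM (0.14, SE 0.13), with overlap. TCP1 stood at 102, 94.0 and 106 against 106, 107 and 90.03 FPKM (0.03, SE 0.11).

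Without TGFb_TFA 3, 7 of the 9 CCT genes were above 0 and the median was 0.038. CCT4 then had 0.11 (SE 0.09), CCT2 0.09 (SE 0.09), CCT6A 0.04 (SE 0.09) and CCT5 0.0040 (SE 0.08). On scaled counts the groups of CCT2 and CCT5 overlapped and those of CCT4, CCT6B and CCT8 did not. CCT8 overlapped on FPKM. For 8 of the 9 genes TGFb_TFA 3 was the highest library on scaled counts. The family median kept its sign in 19 alternative fits, from 0.014 after quantile normalization of FPKM to 0.19 without TGFb_TFA 1. CCT6B was the member with the largest fitted value and the lowest p, at 0.214, 0.421 and 0.412 against 0.517, 0.526 and 0.559 FPKM (0.64, SE 0.31; adjusted p = 0.9997 by edgeR's quasi-likelihood test, Benjamini-Hochberg adjusted). Its level lay under 1 FPKM in every library. Prefoldin, which delivers unfolded actin and tubulin to CCT, and other CCT helpers were listed apart from the members. All 9 had fitted values above 0, with 0 called and a median of 0.18, and the median was -0.09 without TGFb_TFA 3. VBP1, a prefoldin subunit, stood at 59.2, 53.9 and 49.7 against 62.7, 66.5 and 76.2 FPKM (0.38, SE 0.17; unadjusted p 0.0563).

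Small heat shock proteins were represented by HSPB1 and HSPB11 only, since HSPB3, HSPB6 and HSPB8 had too few counts to test and stood at 0.0887 FPKM or less. HSPB1 (chr7:76302673-76304292), also called HSP27, stood at 76.7, 87.1 and 82.3 FPKM with TGF-β and at 68.8, 69.3 and 69.6 FPKM with TFA. The TFA libraries were close to each other and all below the TGF-β libraries, and TGFb_TFA 3 did not stand apart on this scale. The mean was 82.0 ± 5.21 against 69.2 ± 0.393 FPKM (SD, n = 3), which the fit put at -0.21 on the log2 scale (SE 0.13; 95% interval -0.52 to 0.10; unadjusted p 0.154). On scaled counts the groups overlapped. Without TGFb_TFA 3 the value was -0.29 (SE 0.11; unadjusted p 0.0268, adjusted p = 0.999 by the same edgeR test). HSPB11, which despite its name is a component of intraflagellar transport (IFT25), stood at 66.2, 68.8 and 59.2 against 59.9, 57.6 and 83.5 FPKM (0.10, SE 0.22; -0.19 without TGFb_TFA 3).

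Chaperones of the ER form the set that ATF6 and related factors raise when unfolded protein builds up there. HSPA5 (chr9:125234853-125241343), the ER HSP70 BiP, stood at 233, 210 and 250 FPKM with TGF-β and at 223, 216 and 163 FPKM with TFA (-0.18, SE 0.13; 95% interval -0.47 to 0.11; -0.12 without TGFb_TFA 3). DNAJB9, a J-domain protein of the ER that is a sensitive target of the unfolded protein response, stood at 9.04, 8.58 and 8.59 against 9.34, 8.27 and 10.9 FPKM (0.17, SE 0.18; -0.03 without TGFb_TFA 3). DNAJB11, which assists HSPA5, stood at 22.9, 21.5 and 21.4 against 22.5, 23.0 and 23.7 FPKM (0.11, SE 0.13; 0.0083 without TGFb_TFA 3). DNAJC3, another partner of HSPA5, was low in 2 libraries of different groups, at 12.4, 7.33 and 11.2 against 12.1, 12.8 and 6.21 FPKM (0.02, SE 0.26; 0.23 without TGFb_TFA 3). The groups overlapped in each of these genes. Over the 8 ER members the median was 0.02 (6 above 0, 2 below), or -0.01 without TGFb_TFA 3, and 8 of 19 alternative fits gave it the other sign.

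A further 12 ER folding genes outside the members had 0 called, 3 fitted above 0 (0.22 at most) and 9 below. Their median of -0.10 kept its sign in 19 alternative fits. CALR, the lectin chaperone calreticulin, stood at 320, 364 and 323 FPKM with TGF-β and at 295, 280 and 287 FPKM with TFA (-0.19, SE 0.13). HERPUD1, a protein of ER-associated degradation, stood at 8.19, 7.92 and 8.99 against 7.48, 7.56 and 5.29 FPKM (-0.28, SE 0.13). On FPKM the groups did not overlap in either, nor in PDIA6, a protein disulfide isomerase at 121, 122 and 121 against 115, 116 and 111 FPKM (-0.06, SE 0.12). These were 3 of 12 genes lower without overlap, against 3.73% of all tested genes. The list was chosen with earlier results of these data known, so this contrast is a description and not a test. On scaled counts 2 of the 12 were lower without overlap, against 3.33%, and CALR and PDIA6 overlapped. HSPA5 and HSP90B1, the members with ER stress elements in the windows printed above, overlapped between groups.

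**Figure D3:**
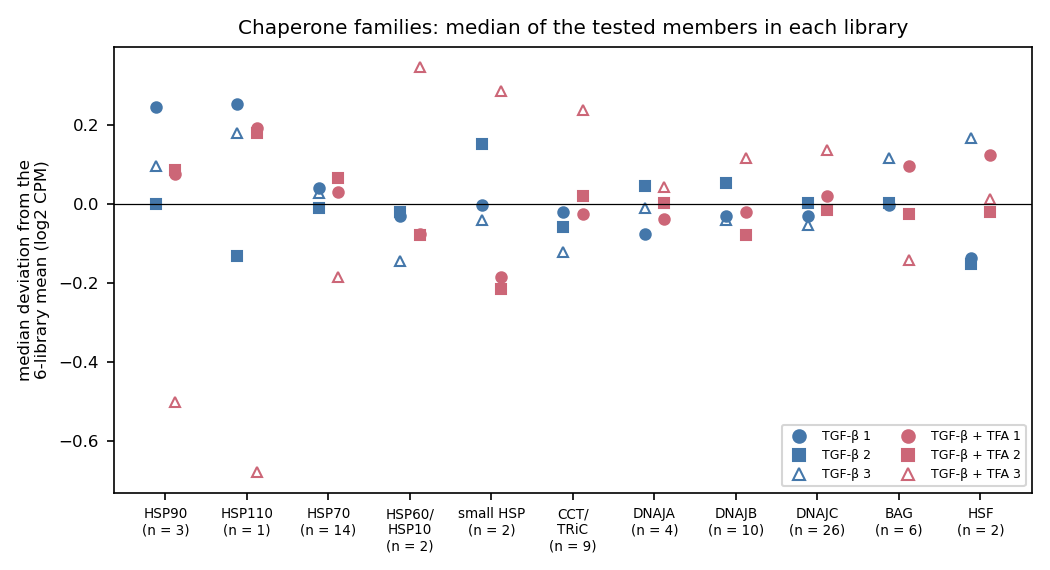
Median deviation of a family's tested members from their 6-library mean (y axis, log2 CPM) in each library, by family (x axis, with the number of tested members), blue for TGF-β and red for TGF-β with TFA. TGFb_TFA 3, the open red triangle, is lowest for HSP90 (-0.50) and HSP110 (-0.68) and highest for HSP60/HSP10 (0.35), small HSP (0.29) and CCT/TRiC (0.24).

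The place of TGFb_TFA 3 differed by family. Its median deviation from the 6-library mean was -0.50 for HSP90 and -0.68 for HSPH1, and 0.35 for HSPD1 with HSPE1, 0.29 for the 2 small heat shock proteins and 0.24 for CCT. Within HSP90, the gene HSP90AB1 lay at -0.09 in this library. In the other 5 libraries the HSP90 medians lay between 0.0011 and 0.25 and the CCT medians between -0.12 and 0.022. Over the 79 members this library was the lowest of the 6 for 24 and the highest for 35 on scaled counts (29.8% and 28.6% of all tested genes). On FPKM these counts were 35 and 23. The shares of all tested genes were not computed on FPKM, so the 2 scales cannot be compared for the members.

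The members' deviations went with transcript length in TGFb_TFA 3, and in other libraries too. They are taken from a mean over all 6 libraries, so the correlations of the libraries are not independent of each other. Across the 79 members, which share that library and its scaling, the correlation with log2 effective length was -0.45 (Pearson), beside -0.37 in TGFb 2 and 0.23 to 0.47 in the other 4 libraries. HSPE1, at the 17.1 percentile of length among tested genes, deviated by 0.73, and DNAJC13, at the 87.7 percentile, by -1.29. HSP90AA1 (-0.76) and HSPA8 (0.30) are of nearly equal length, at the 57.2 and 54.6 percentiles, and lay on opposite sides. A separate fit used offsets that remove each library's trend with length. Its median log2 fold changes between the groups were -0.21 for HSP90, 0.12 for CCT and 0.12 for HSPD1 with HSPE1. The main fit had -0.21, 0.14 and 0.16. Deviations of TGFb_TFA 3 after the offsets are not given here, and the part of length in them was not tested.

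**Figure D4:**
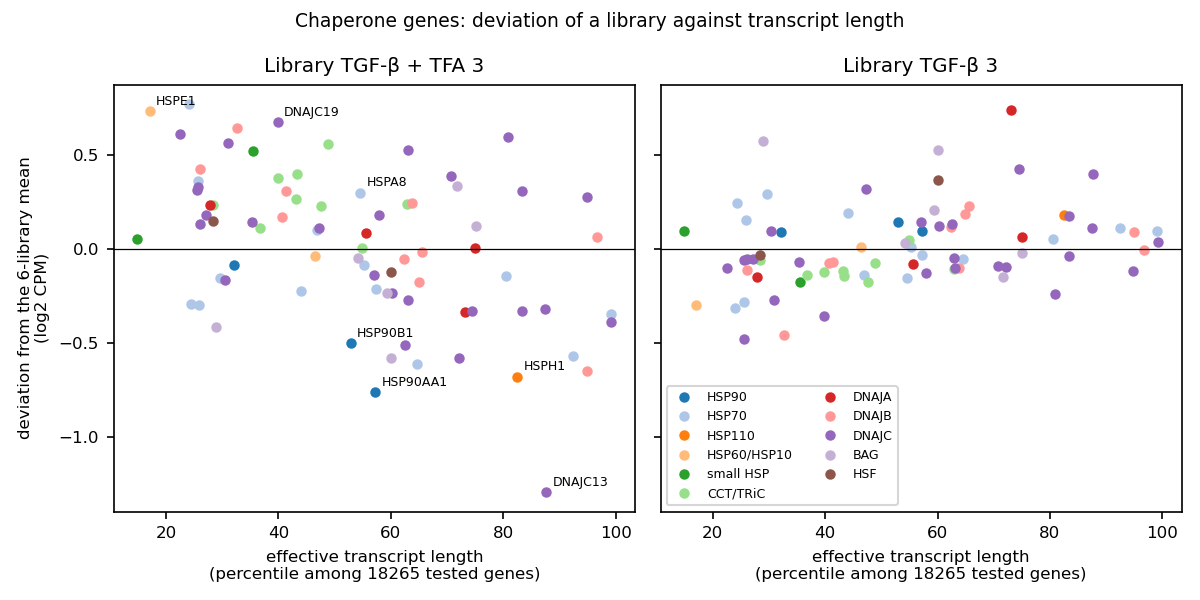
Deviation of each tested member from its 6-library mean (y axis, log2 CPM) against the percentile of its effective transcript length among 18265 tested genes (x axis), in TGFb_TFA 3 (left) and, for contrast, TGFb 3 (right), coloured by family. In TGFb_TFA 3 the short HSPE1 lies at 0.73 and the long DNAJC13 at -1.29, while HSP90AA1 and HSPA8, of similar length, lie apart at -0.76 and 0.30.

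Processed pseudogenes, of which the chaperones have many, took a small share of the counts of a member and its copies. The share in copies named in the table was at most 1.19% for HSPD1, 1.12% for HSPE1, 0.719% for HSP90AA1 and 0.0321% for HSPA8 in any library, and 2.59% to 3.60% for DNAJB6.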

How the data were processed

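Poly(A) RNA of 6 DLD-1 libraries was sequenced in stranded libraries, per the labels' protocols. Tools listed without roles in the submitters' processing notes are StringTie 1.3.4d, HISAT2 2.0.4 and cutadapt 1.9, with build GRCh38. The deposited table gives, per gene and library, an FPKM value and an estimated count. Counts are whole, yet a count of 4 was more frequent (1032 to 1271 genes per library) than 3 or 5, so the totals may overstate the number of fragments. The 2 groups were compared with edgeR 4.0.16 in R 4.3.3 on the estimated counts (filterByExpr, TMM, quasi-likelihood test, 2-sided, Benjamini-Hochberg over 18265 genes, threshold 0.05). Intervals are 95%, and standard errors are the ratio of the log2 fold change to the square root of F. Levels are the authors' FPKM. The code was tested on simulated data. Alternatives were limma 3.58.1 on log2(FPKM + 0.5, 0.1 or 1) for genes with a mean of at least 0.5 FPKM, DESeq2 1.42.0, its size factors, other filters, quantile normalization, length offsets, counts divided by 4, summed copies, a replicate block and left-out libraries. Named members were, per family, the 2 most abundant, the highest and lowest fold change at 1 FPKM or more, any at an unadjusted p under 0.05, and a fixed core of 22; other names were chosen after their values were seen. Members and lists were chosen with earlier results of these data known. Effective length is the ratio of count to FPKM. Positions of genes are the table's, and exon overlaps come from GENCODE 29.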

Additional observations from a re-analysis of the deposited data

How the results depend on the processing

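No member passed the adjusted threshold under any of the 19 alternatives, and for the 36 named members the lowest adjusted p was 0.887 over 682 values. Of these values, 49 in 19 members had the other sign, none of a called member. The count of genes called higher was 13 with DESeq2 (2 called lower), 1 with the replicate block, 1 with length offsets and the block, and 1 to 3 with a library left out. Without TGFb 1 and TGFb_TFA 3 together 1 gene was called lower, and 1 member (HSPB1, unadjusted p 0.0190 in edgeR) was under 0.05. In that setting 39 of 79 members did not overlap, against 38.1% of all genes. On log2 FPKM limma gave 2 members at an unadjusted p under 0.05, HSPA14 (0.0410) and HSPB1 (0.0349). It also gave 2 with a pseudocount of 0.1, with 1 and after quantile normalization. After quantile normalization 3 of 70 members did not overlap, against 6.98% of all genes. With a library left out, members under 0.05 ran from 0 to 1 and the members' median from -0.019 to 0.043. Members without overlap then ran from 11 to 21 of 79, against 13.3% to 21.4% of all genes. This overlap alternative was added after seeing the data.

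Same-numbered libraries of the 2 groups correlated at 0.04, -0.12 and -0.13 in their deviations, and TGFb 2 with TGFb_TFA 3 at 0.21. These deviations were taken from the mean of each group of 3 libraries, so they cannot decide whether the numbers pair the libraries. The block called 0 members. With 3 libraries a group, the 95% interval reached past 1.5-fold in 28 of 79 members, so a change of that size was not excluded in them.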
